A study of Mus musculus with 6 samples.

Results

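The dual-specificity phosphatases described here are the enzymes that switch off MAP kinases, measured in mouse CD4+CD8+ thymocytes with and without a pair of microRNA genes of the miR-181 family. They were taken by symbol: Dusp1, Dusp2, Dusp4, Dusp5, Dusp6, Dusp7, Dusp8, Dusp10 and Dusp16. All 9 were found among the 37867 gene models of the deposited table, and 8 of them were tested by the authors. The samples were 3 sorted populations from mir181a1/b1 knockout mice and 3 from wild type mice, all of the strain C57bl6 and sorted for CD4 and CD8, with a stated purity above 95%. For age, sex and the method of the deletion, the sources used here give nothing. RNA was sequenced from each population, and the table gives 1 value per genotype in FPKM, a fragment count scaled by transcript length and library size. No SD and no value of a single population can therefore be given, the depth of the libraries is unknown, and whether single populations of the 2 genotypes overlap cannot be seen. Nothing in the labels ties the populations to separate mice, so the authors' p-values concern these samples only. Their test is unknown here, so which spread they measure cannot be told.

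MAP kinases become active when a MAP kinase kinase phosphorylates a threonine and a tyrosine in their activation loop. MAP kinase phosphatases remove both phosphates and so end the signal. The family falls into a nuclear group whose genes are induced by the signal itself (Dusp1, Dusp2, Dusp4 and Dusp5), a cytoplasmic group that prefers ERK (Dusp6 and Dusp7, with Dusp9) and a group that prefers JNK and p38 (Dusp8, Dusp10 and Dusp16). In the thymus, the strength and duration of ERK activity downstream of the T cell receptor bear on positive and negative selection at the CD4+CD8+ stage, and miR-181a is known for tuning the sensitivity of that receptor through phosphatases, Dusp5 and Dusp6 among its reported targets.

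The mature products of the deleted genes are shown because the seed that pairs with target RNAs is identical in both. Capitals mark the seed, bases 2 to 8, in the RefSeq sequences (GRCm38.p6), which lie on the plus strand of chromosome 1 at chr1:137966468-137966490 and chr1:137966650-137966673.
mmu-miR-181a-5p: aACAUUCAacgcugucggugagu
mmu-miR-181b-5p: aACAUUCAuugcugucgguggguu
A messenger RNA that pairs with this seed carries TGAATGT, written as DNA. The deposited values measure neither mature microRNA. The host transcript model of the targeted locus was listed at 156 FPKM without and 3.35 FPKM with them. It does not check the labels, because its deleted part is unknown here.

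Genes of double-positive thymocytes were abundant in both genotypes. Rag1, which cuts the receptor genes, was listed at 1193 and 1220 FPKM, Cd4 at 907 and 732 FPKM, and Cd8a at 836 and 906 FPKM in the knockout and the wild type, in that order throughout this paragraph. Of 10 such genes, 2 were lower in the knockout by the q of the authors' deposited table, Ptcra and Aqp11. Markers of other cells moved in part. For 6 double-negative markers the summed level was 52.1 and 33.5 FPKM. Of these Il2ra rose, at 29.4 and 2.89 FPKM. Without a call, Gata3 (17.5 and 26.1 FPKM) and Kit (0.370 and 0.672 FPKM) were lower, and Cd44 (3.81 and 2.96 FPKM) and Il7r (1.03 and 0.803 FPKM) higher. For 5 gamma delta and NKT cell markers the sum was 14.6 and 4.27 FPKM, nearly all Tcrg, which rose. The other 4 of that list were not tested, and each was listed lower in the knockout, Il2rb the highest of them at 0.257 and 0.329 FPKM. The summed level was 16.0 and 20.4 FPKM for 5 B cell markers, nearly all Cd79b, with Ms4a1 and Pax5 at most 0.0529 FPKM. For 8 macrophage and dendritic cell markers it was 3.69 and 7.08 FPKM, and Itgam was the 1 of them that fell. For 6 thymic epithelial markers it was 12.8 and 7.53 FPKM; Ly75 rose, Epcam fell, and Foxn1 was listed at 0 in the knockout. The sums were 0.670 and 1.39 FPKM for 4 erythroid markers and 51.6 and 55.6 FPKM for 7 fibroblast and endothelial markers, nearly all Pecam1, with Col3a1 and Pdgfra at 0 in both. The part of these cells in the values of the phosphatases was not tested.

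Dusp10 was the most abundant phosphatase of the group in both genotypes. It encodes an enzyme that prefers JNK and p38, and its mean of the knockout (49.8 FPKM) and the wild type (49.1 FPKM) exceeded that of 90.2% of the tested models. Dusp2, a nuclear phosphatase of activated lymphocytes, came second in the wild type at 18.8 FPKM, ahead of Dusp5, the nuclear phosphatase specific for ERK, at 12.9 FPKM. Dusp6, the cytoplasmic phosphatase of ERK, followed at 8.34 FPKM. Below these were Dusp1, the first member of the family to be described and an early response gene, at 6.95 FPKM, Dusp7, the close relative of Dusp6, at 6.27 FPKM, Dusp4, a nuclear phosphatase induced by ERK, at 4.87 FPKM, and Dusp16, a phosphatase of JNK, at 3.77 FPKM. Dusp8, best known from brain and heart, was listed at 0.0138 FPKM in the wild type and at 0 in the knockout, was not tested, and gets no fold. All 8 others were above 2 FPKM in each genotype.

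The order differed between the genotypes. In the knockout Dusp6 stood in second place at 10.3 FPKM, ahead of Dusp2 at 6.69 FPKM, Dusp7 at 4.58 FPKM, Dusp5 at 4.38 FPKM, Dusp16 at 4.07 FPKM, Dusp1 at 3.59 FPKM and Dusp4 at 2.35 FPKM. Dusp10 stood far above the gene in second place in both orders, while the levels from the fourth place down lay close together. With no spread for a level, no pair of neighbours in either order can be shown to differ. Summed over the members, the nuclear group made up 39.2% of the FPKM in the wild type (43.5 of 111 FPKM) and 19.8% in the knockout (17.0 of 85.8 FPKM). The cytoplasmic pair summed to 14.6 FPKM in the wild type and 14.9 FPKM in the knockout, and the JNK and p38 group to 52.9 and 53.9 FPKM. Within the members, the lower total of the knockout thus came from the nuclear group. The sum over all gene models was lower in the knockout as well, at 297352 FPKM against 360688 FPKM in the wild type. In cells measured in bulk, fewer cells that make a transcript and less of it per cell cannot be told apart.

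**Figure D1:**
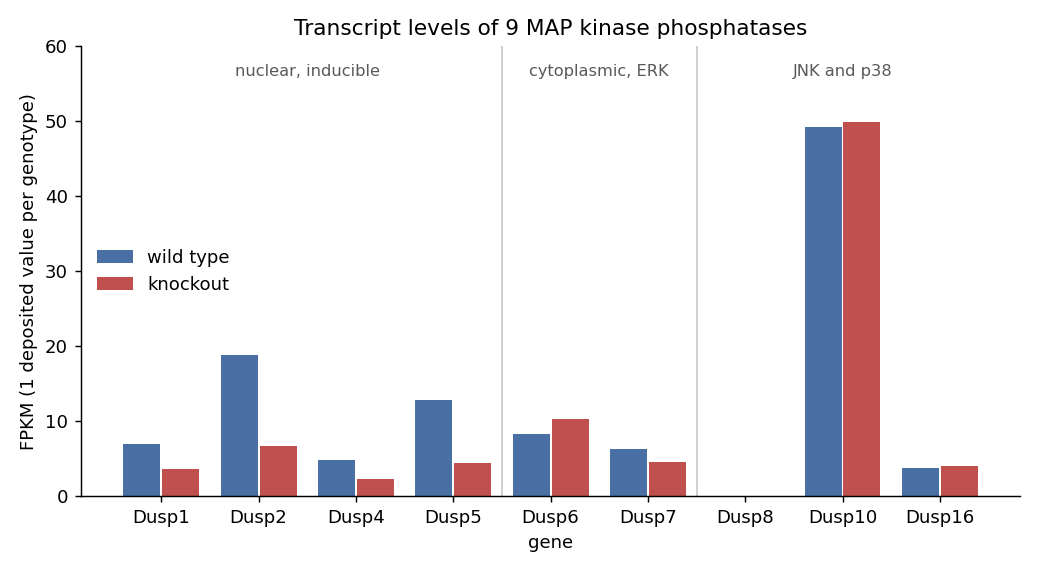
Level of each MAP kinase phosphatase in FPKM on a linear axis from 0, 1 pooled value per genotype (blue wild type, red knockout) and no error bars, in the order nuclear, cytoplasmic, and JNK and p38 selective. The knockout value is below the wild type value for Dusp1, Dusp2, Dusp4, Dusp5 and Dusp7, while Dusp10 is the highest in both genotypes, and Dusp8 is too low for its bars to be seen.

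The 4 inducible nuclear phosphatases were all lower in the knockout, by 1.94-fold to 2.94-fold. Dusp5 differed most, falling from 12.9 FPKM in wild type cells to 4.38 FPKM in knockout cells. As log2 of knockout over wild type that is -1.56, with a standard error of 0.53, a 95% interval of -2.59 to -0.52 and, by the authors' deposited table, a q of 0.0234. The standard error here and below is implied, the log2 ratio divided by the deposited test statistic, and the interval follows from it. Dusp2 fell from 18.8 to 6.69 FPKM, a log2 ratio of -1.49 (standard error 0.44, interval -2.36 to -0.62), and the authors' deposited table gives a q of 0.00770. Dusp4 fell from 4.87 to 2.35 FPKM, a log2 ratio of -1.05 (standard error 0.33, interval -1.69 to -0.41), and the authors' deposited table gives a q of 0.0117. Dusp1, which acts on p38 and JNK more than on ERK, fell from 6.95 to 3.59 FPKM, a log2 ratio of -0.95 (standard error 0.33, interval -1.60 to -0.31), and the authors' deposited table gives a q of 0.0272. The intervals of the 4 genes overlap one another, and none includes 0. None of the 4 passed once a trend of the ratios with base composition, given below, had been removed.

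The remaining members did not pass the threshold. Dusp6 was listed at 10.3 FPKM in knockout and 8.34 FPKM in wild type cells, a log2 ratio of 0.31 with a standard error of 0.28 (q = 0.531 by the authors' deposited table). Its interval of -0.23 to 0.85 leaves room for a rise of up to 0.85 on the log2 scale and for a small decrease. Dusp7 was listed at 4.58 and 6.27 FPKM, a log2 ratio of -0.45 with a standard error of 0.29 and an interval of -1.02 to 0.12 (q = 0.327 by the authors' deposited table). Dusp10 had a log2 ratio of 0.02 with a standard error of 0.23 and an interval of -0.44 to 0.48 (q = 0.985 by the authors' deposited table), the narrowest interval of the members. Dusp16 was listed at 4.07 and 3.77 FPKM, a log2 ratio of 0.11 with a standard error of 0.30 and an interval of -0.47 to 0.69 (q = 0.897 by the authors' deposited table). Whether the ratios of the nuclear group differ from those of the other members was not tested.

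Of the 8 tested members, 4 were thus called lower and 0 higher, by a q under 0.05, the call used throughout, from the authors' deposited table. Over all 13834 tested models 17.1% were called, 15.3% lower and 1.79% higher. The median log2 ratio of the tested members was -0.70, and that of all tested models was -0.17. With the ratios centred on that median, Dusp2 and Dusp4 kept an adjusted p under the threshold, at 0.0254 and 0.0481, while Dusp5 and Dusp1 came to 0.0560 and 0.0904 (Benjamini-Hochberg over all tested models). The 9 genes lie on 9 different chromosomes, so none shares a neighbourhood with another. In mm9, the deposited loci, which can hold other genes as well and are not the bounds of the members, are chr17:26641930-26675032 for Dusp1, chr2:127146545-127183387 for Dusp2, chr8:35870663-35882948 for Dusp4, chr19:53601909-53633880 for Dusp5, chr10:98725864-98730118 for Dusp6, chr9:106270962-106278052 for Dusp7, chr7:149267400-149280947 for Dusp8, chr1:185858339-185899515 for Dusp10 and chr6:134665490-134746838 for Dusp16. The reference transcripts of the 4 nuclear members have 4 exons each, those of Dusp6 and Dusp7 have 3, that of Dusp10 has 4, and those of Dusp8 and Dusp16 have 7.

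**Figure D2:**
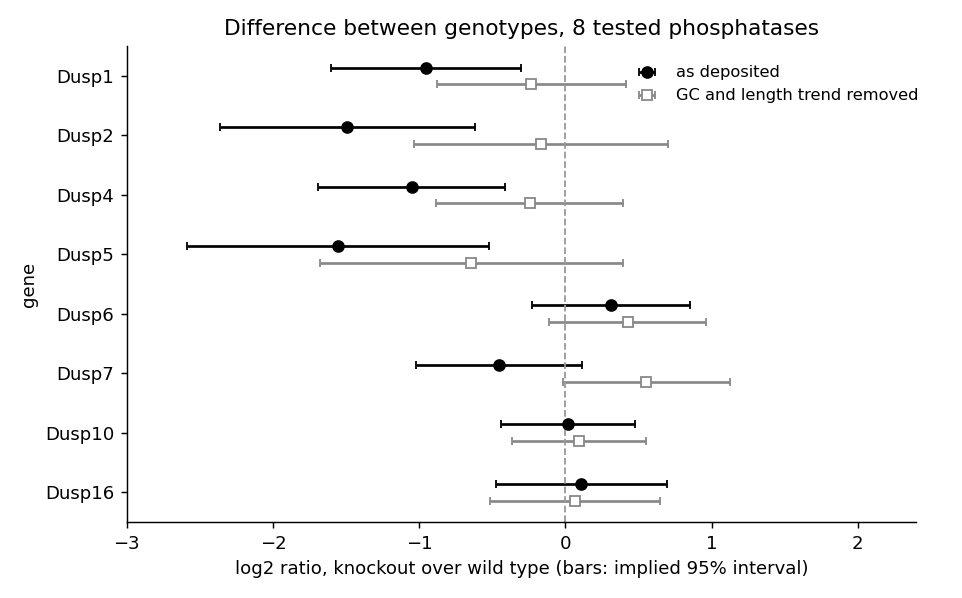
Log2 ratio of knockout over wild type for the 8 tested members, as deposited and after removal of the trend with GC content and length, with bars for the 95% interval implied by the deposited statistic. As deposited, the intervals of Dusp1, Dusp2, Dusp4 and Dusp5 lie below 0; after the removal all 8 intervals include 0.

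Base composition moved with these ratios. Across the 8993 coding genes that averaged 1 FPKM or more, the log2 ratio and transcript GC content had a Spearman's rho of -0.763; genes are not independent replicates. The nuclear members are rich in G and C, with 54.9% for Dusp1, 59.2% for Dusp2, 55.99% for Dusp4 and 56.7% for Dusp5. Dusp6, Dusp10 and Dusp16 have 49.0%, 48.4% and 47.8%. Dusp7 is the exception, with 57.6% GC and no call. Over the 8 tested members rho was -0.738, given as a description. Among the 200 coding genes nearest to each member in GC content and length, the share called lower in the authors' deposited table was 38.5% for Dusp1, 64.5% for Dusp2, 34.5% for Dusp4, 43.0% for Dusp5 and 58.5% for Dusp7, against 2.5% for Dusp6, 3.5% for Dusp10 and 1% for Dusp16.

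No member passed the threshold once a robust spline trend of GC content and length had been taken from the log2 ratios. The values that remained were -0.64 for Dusp5, -0.24 for Dusp4, -0.23 for Dusp1 and -0.17 for Dusp2, with adjusted p values of 0.856, 0.975, 0.980 and 0.999 by Benjamini-Hochberg over the 8993 genes. Of those genes, 1.80% were called after the removal. Dusp7 changed sign to 0.55 (interval -0.02 to 1.12, adjusted p value of 0.524), Dusp6 came to 0.43 (interval -0.11 to 0.96, adjusted p value of 0.722), and Dusp10 and Dusp16 stood at 0.09 and 0.07. At an unadjusted p under 0.05, 0 of the 8 passed, and the lowest p was that of Dusp7 at 0.0573. Set against its 200 nearest genes, Dusp5 was the lowest of the members, since 7.5% of them had a lower ratio, and Dusp7 the highest, since 91.5% of its own did. The removal takes out any part of a difference that follows GC content or length, and the source of the trend was not tested.

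**Figure D3:**
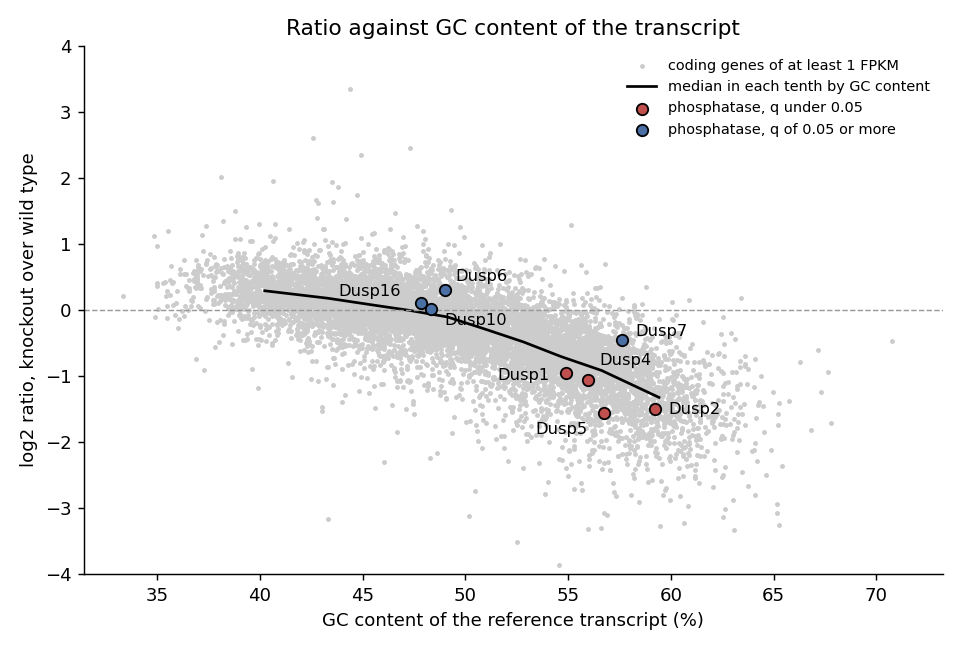
Log2 ratio of knockout over wild type against GC content of the reference transcript in percent, for 8993 coding genes (small points, 6 lie beyond the axis) and the 8 tested members (large labelled points). Ratios decline with GC content; Dusp1, Dusp2, Dusp4 and Dusp5 lie among genes of like GC content that are mostly below 0, and Dusp7 lies above most of its neighbours.

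Noncoding models are listed beside some members. Their intervals are identical to those of the members because the deposited coordinates are those of a locus that can hold several genes, so they do not show whether the models themselves overlap. If the TruSeq libraries kept no record of strand, the reads of an antisense model that does overlap and those of the gene cannot be told apart. In the locus of Dusp2 a model named as antisense was listed at 2.01 FPKM in knockout and 2.62 FPKM in wild type cells, which is 29.96% and 13.9% of the level of Dusp2. One in the locus of Dusp5 was listed at 0.933 and 1.16 FPKM, or 21.3% and 9.04% of Dusp5. Their log2 ratios were -0.38 (standard error 0.40) and -0.32 (standard error 0.35), with q values of 0.616 and 0.646 in the authors' deposited table. The model named as antisense to Dusp1 was listed at 0.0807 and 0.310 FPKM and was not tested. A noncoding model in the locus of Dusp16 was listed at 0.154 and 0.0123 FPKM, also without a test. The part of these models in the values of the members was not tested.

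Matches to the miR-181 seed were found in the 3′ UTRs of 3 members, in 1 reference transcript per gene. They are shown with the bases around them, since Dusp5 and Dusp6 are reported targets. Capitals mark the match, and the windows are read on the plus strand of GRCm38 at chr19:53542313-53542342, chr10:99267432-99267461 and chr1:184075481-184075510.
Dusp5: gtaaacccatgTGAATGTgaagagaagcag
Dusp6: atttattataaGAATGTAaaaccttaaatt
Dusp10: tatgtatatcaGAATGTAaaaaaacaaaac
The match in Dusp5 pairs with bases 2 to 8 of the microRNA and lies 1002 to 1008 bases after the stop codon. Those in Dusp6 and Dusp10 pair with bases 2 to 7 and are followed by an A opposite base 1, at 1144 to 1150 and 969 to 975 bases after the stop codon. No member had a match of both kinds at one position, and Dusp1, Dusp2, Dusp4, Dusp7, Dusp8 and Dusp16 had none. Among genes with a 3′ UTR of like length, 20.0% had at least 1 such match for Dusp5, 21.2% for Dusp6 and 20.1% for Dusp10. Of the 3 genes with a match, Dusp5 was called lower as deposited and not after the trend removal, and Dusp6 and Dusp10 were called in neither.

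Over all 8993 coding genes, 1974 (22.0%) had a match. Their median log2 ratio was 0.07, against -0.35 for the 7019 genes without one, and their median GC content was 46.5% against 51.1%. After the trend had been taken out, the medians were 0.05 and -0.01. A match is a description of the letters and does not show that the microRNA acts there. The pentamer ATTTA, the core of AU-rich elements that shorten the life of induced messages, occurred 4 times each in the 3′ UTRs of Dusp1 and Dusp2, 2 times in Dusp4 and once in Dusp5. It occurred 5 times in Dusp8, 3 times each in Dusp10 and Dusp16, once in Dusp6 and 0 times in Dusp7, so its presence did not separate the called members from the others.

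**Figure D4:**
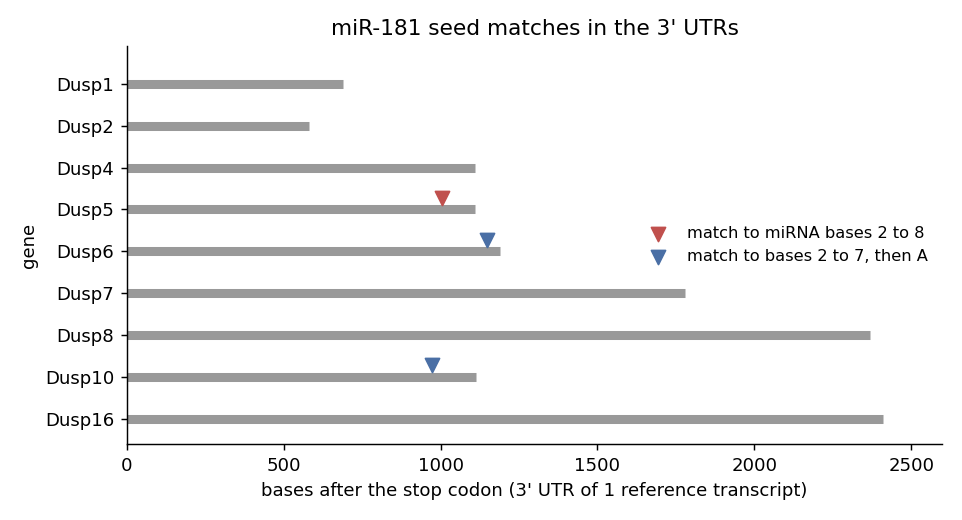
Length of the 3′ UTR of each member in bases (grey bars) and the positions of the miR-181 seed matches (triangles, coloured by kind). Dusp5, Dusp6 and Dusp10 hold 1 match each, all in the last part of UTRs of 1109 to 1189 bases, and the longest UTRs, those of Dusp8 and Dusp16, hold none.

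Promoters are shown for 2 genes that were lower and 1 that was not called, because the nuclear members are known as genes switched on by the kinases they inhibit. The windows are the 300 bases around each start in RefSeq (GRCm38.p6), most of them before it. They lie at chr17:26508423-26508722 on the minus strand, chr19:53528895-53529194 on the plus strand and chr10:99262981-99263280 on the plus strand. Capitals mark the cyclic AMP response element (CRE) TGACGTCA, its shorter core TGACG, the AP-1 site TGACTCA and the CArG box, which binds serum response factor.
Dusp1: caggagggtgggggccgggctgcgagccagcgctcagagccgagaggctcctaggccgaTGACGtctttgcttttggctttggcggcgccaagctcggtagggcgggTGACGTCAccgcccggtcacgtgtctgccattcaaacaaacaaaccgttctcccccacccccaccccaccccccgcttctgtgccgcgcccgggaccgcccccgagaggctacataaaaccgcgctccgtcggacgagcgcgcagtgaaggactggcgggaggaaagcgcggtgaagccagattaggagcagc
Dusp5: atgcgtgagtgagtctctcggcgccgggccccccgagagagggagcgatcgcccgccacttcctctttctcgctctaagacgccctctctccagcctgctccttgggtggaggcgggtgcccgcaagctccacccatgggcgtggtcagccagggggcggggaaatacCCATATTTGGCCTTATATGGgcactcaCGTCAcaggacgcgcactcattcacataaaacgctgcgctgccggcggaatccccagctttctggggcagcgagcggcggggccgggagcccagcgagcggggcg
Dusp6: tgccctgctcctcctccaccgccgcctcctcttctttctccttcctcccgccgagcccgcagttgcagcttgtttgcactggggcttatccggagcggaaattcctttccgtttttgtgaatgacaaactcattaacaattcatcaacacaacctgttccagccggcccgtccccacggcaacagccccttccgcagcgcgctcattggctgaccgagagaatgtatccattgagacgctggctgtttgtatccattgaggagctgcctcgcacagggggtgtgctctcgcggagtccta
Both strands were searched, and the shorter core also lies within each full CRE. Dusp1 holds a full CRE at bases -143 to -136 from the start and a further core at -191 to -187. Dusp5 holds a pair of adjoining CArG boxes, CCATATTTGG at -82 to -73 and CCTTATATGG at -72 to -63, and a core at -55 to -51. The window of Dusp6 holds none of these 4 motifs, nor any of the other 4 searched, the GC box GGGCGG, the ETS core CCGGAA, the E-box CACGTG and the EGR site GCGGGGGCG. That says only that these letters are not in this window. Of 32851 promoters of this length, 1.79% hold the full CRE, 20.8% the shorter core, 5.202% the AP-1 site, 1.63% a CArG box, 35.7% the GC box, 14.9% the ETS core, 7.15% the E-box and 2.91% the EGR site.

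Other members held these motifs whether or not they were called. Dusp2, which was lower, holds a core at 6 to 10 bases after the start and the EGR site at -98 to -90. Dusp8, which was at or near 0 in both genotypes, holds full CREs at -107 to -100 and at -63 to -56. Dusp16 holds a core at -70 to -66, and Dusp7 and Dusp10 hold only GC boxes. The AP-1 site was in none of the 8 windows. GC content of the windows ran from 57.3% in Dusp6 to 78.7% in Dusp7. A promoter was found in the RefSeq table for 8 of the 9 members; Dusp4 was not matched.

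Mapk3, Mapk8, Mapk9 and Mapk14, kinases that these phosphatases act on, did not pass the threshold. Here and below, paired levels give the knockout and then the wild type. Mapk3, which encodes ERK1, was listed at 18.8 and 28.1 FPKM (q = 0.174) per the authors' deposited table. Mapk8 and Mapk9, which encode JNK1 and JNK2, were listed at 24.1 and 23.7 FPKM and at 29.6 and 26.5 FPKM, and Mapk14, which encodes p38 alpha, at 36.4 and 38.4 FPKM. Over all tested models 15.3% were called lower and 1.79% higher, with a median log2 ratio of -0.17, for this list and those below. Of 9 tested MAP kinases, 2 fell and none rose, with a median log2 ratio of -0.08. Mapk7, which encodes ERK5, fell from 13.7 to 5.62 FPKM (q = 0.000470), and Mapk11, which encodes p38 beta, from 4.23 to 2.20 FPKM (q = 0.0314) per the authors' deposited table.

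Upstream of the kinases, 2 of 7 MAP kinase kinases fell and none rose, with a median log2 ratio of -0.23. Map2k2, which encodes the ERK activator MEK2, fell from 27.2 to 5.21 FPKM (log2 -2.39, q = 7.82e-10), and Map2k7, an activator of JNK, from 37.3 to 21.1 FPKM (q = 0.0415) per the authors' deposited table. Map2k4, Map2k5 and Map2k6 were listed at 19.6 and 16.4, 25.4 and 28.2, and 16.4 and 17.9 FPKM, and did not pass. Where 15.3% of all tested models were called lower, 3 of 24 genes for Ras, Raf and other activators fell and none rose (median -0.04). They were Map3k11, a kinase upstream of JNK, from 18.6 to 4.05 FPKM (log2 -2.20, q = 4.06e-11), Map3k14, the NF-kappa-B inducing kinase, from 7.16 to 3.76 FPKM (q = 0.0180), and the scaffold Ksr1 from 5.03 to 2.66 FPKM (q = 0.0192) per the authors' deposited table. Rasgrp1, the exchange factor that couples the T cell receptor to Ras, was listed at 215 and 176 FPKM, Map4k2 at 41.5 and 93.8 FPKM and Map4k4 at 58.0 and 67.5 FPKM, none of them past the threshold.

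Of 12 tested genes listed here as other inhibitors of Ras and ERK, a role not tested in these data, 2 fell and none rose (median -0.42). These were the adaptors Dok2, from 39.3 to 10.3 FPKM (log2 -1.94, q = 3.30e-09), and Dok1, from 6.64 to 2.86 FPKM (q = 0.0136) per the authors' deposited table. Rasa1, a GTPase activating protein of Ras, was listed at 42.3 and 27.9 FPKM, Rasal3 at 76.3 and 118 FPKM and Sh2d2a at 27.5 and 36.5 FPKM, without passing. Of 8 other tyrosine and serine/threonine phosphatases of the pathway, 1 rose and none fell (median 0.03). That was Ptpn22, which acts on the kinases next to the T cell receptor and not on MAP kinases, and is a reported miR-181 target, at 101 and 66.2 FPKM (log2 0.61, q = 0.0432 by the authors' deposited table). Ptpn7, a tyrosine phosphatase of ERK in lymphocytes, was listed at 79.7 and 104 FPKM, the phosphatase 2A catalytic subunit Ppp2ca at 169.6 and 170.3 FPKM and Ppm1a at 40.03 and 38.03 FPKM. Of the 18 other dual-specificity phosphatases, 7 were tested and none was called (median 0.17), with 3 at an unadjusted p under 0.05. Of this list Dusp11, a phosphatase of RNA, was the highest at 58.6 and 43.2 FPKM (q = 0.164), followed by Dusp19 at 5.03 and 5.21 FPKM and Dusp12 at 4.84 and 4.30 FPKM in the authors' deposited table. Dusp9, which belongs with Dusp6 and Dusp7, was not tested, at 0.0276 and 0.139 FPKM.

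Of 19 tested genes induced by ERK signalling, 7 fell and none rose, with a median log2 ratio of -0.65. Over all tested models 15.3% were called lower, and the median was -0.17. Whether the lists differ from one another or from all genes was not tested. Id3, an inhibitor of E proteins that rises after receptor signals, fell from 40.5 to 6.57 FPKM (log2 -2.62, q = 9.46e-11), Myc from 13.1 to 4.91 FPKM (q = 0.00158) and the messenger RNA decay factor Zfp36 from 75.3 to 41.9 FPKM (q = 0.00553) per the authors' deposited table. The other 4, named here to complete the count and chosen after their values were seen, were Fos (0.355 and 1.06 FPKM, q = 0.0157), Junb (1.88 and 7.21 FPKM, q = 0.0167), Cd5 (65.6 and 105 FPKM, q = 0.0283) and Egr1 (34.0 and 53.3 FPKM, q = 0.0423) per the authors' deposited table. Btg2 was listed at 126 and 153 FPKM, Jund at 47.4 and 72.0 FPKM and Cd69, an activation marker, at 34.5 and 25.0 FPKM, without passing. After the trend with GC content and length had been taken out, Id3 was the 1 gene with an adjusted p under the threshold among those of the 7 pathway lists that entered this step, 78 of 86 tested (log2 -1.68, adjusted p value of 0.000746 by Benjamini-Hochberg over 8993 genes). The other 8 averaged under 1 FPKM, among them Fos, which was called as deposited. Of the called genes named above, Map3k14, Egr1 and Cd5 changed sign in that step, to 0.18, 0.27 and 0.18. All lists and the members were compared on the same pooled values of the same samples, so their counts are not independent of one another.

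**Figure D5:**
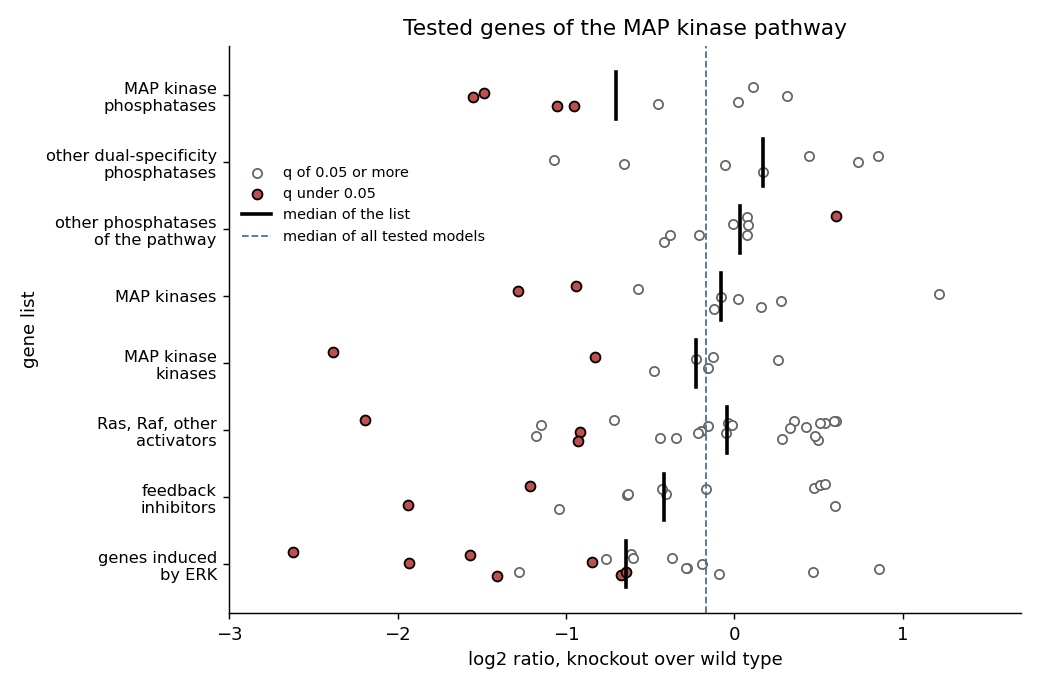
Log2 ratio of knockout over wild type for each tested gene of the members and of 7 lists of the MAP kinase pathway, with filled points for a q under 0.05, black bars for the median of each list and a dashed line for the median of all tested models. All called genes shown lie below 0 except Ptpn22 among the other phosphatases of the pathway, and the other dual-specificity phosphatases hold no called gene; Ier2 of the genes induced by ERK, at a log2 ratio of -6.06 with a q of 0.975, lies beyond the axis.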

How the data were processed

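RNA of 3 knockout and 3 wild type populations of sorted thymocytes was extracted with Trizol or a column kit and made into TruSeq libraries, per the labels' protocols. The submitters' processing notes name TopHat2 and mm9; the sources used here give no counting tool, test or annotation. Per the file headers, the deposited table holds 1 value per genotype, read as FPKM because its columns are those of a program that reports FPKM. The authors also deposited a log2 ratio (wild type over knockout), a test score, whose p-value is that of a normal z, a q-value and a status for each model. The deposited q-values equal a Benjamini-Hochberg adjustment over 13834 tested models to within 1.89e-06.

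Ratios were turned to knockout over wild type, and a deposited q under 0.05 was a call. No test was run on samples, since none has a value of its own. The design written for the table covered this case. GC content, length and 3′ UTR came from GENCODE M21 (GRCm38), 1 coding transcript per gene; 71 genes with a transcript longer than 1.2 times their deposited locus were left out. The trend was a robust (Huber) regression on cubic splines with 5 pieces (statsmodels 0.14.6). What remained of each ratio was divided by its implied standard error. The step was also run on ratios simulated from the fitted trend and that error, which cannot check either of them. Python 3.11.15, numpy 2.4.6, pandas 2.3.3, scipy 1.17.1 and matplotlib 3.10.9 were used. Where several models had a symbol in common, the one with the highest summed FPKM was kept.

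The members and lists were chosen with earlier results of these data known. Named genes are all members, the main MAP kinases and, of each list, up to 3 called genes per direction by smallest p and up to 3 others with the highest mean FPKM; marker genes were named for their cell type. Some genes under this rule are not reported here. Alternatives covered the threshold, centring, scaling, pseudocounts, a minimum level and the trend.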

Additional observations from a re-analysis of the deposited data

How the results depend on the processing

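The count of 4 lower members depended on the scaling and on base composition. It was 1 at a q under 0.01, 2 with the ratios centred on the median, 0 with the GC and length trend removed and, in an alternative chosen after seeing the data, 1 (Dusp2) when the values were scaled to the sum of FPKM. It was 4 at a q under 0.10, 4 at a mean of at least 1 FPKM, 3 at 5 FPKM, and 4 over all models or by smallest p. Centring moved the share of lower among all called models from 89.6% to 75.03%. Over the 8993 coding genes that entered the trend it was 92.6% before and 54.9% after the removal.

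The counts in the pathway lists, as deposited, at a q under 0.01, at a q under 0.10, centred and with the trend removed, were 0, 0, 2, 2 and 0 for other dual-specificity phosphatases, 2, 1, 2, 1 and 0 for MAP kinases, and 2, 1, 2, 1 and 0 for MAP kinase kinases. They were 3, 1, 4, 2 and 0 for Ras, Raf and other activators, 2, 1, 4, 3 and 0 for feedback inhibitors, 7, 3, 9, 5 and 1 for genes induced by ERK, and 1, 0, 1, 1 and 0 for other phosphatases of the pathway. The trend was removed for 78 of their 86 tested genes. All these counts take both directions together. Besides Ptpn22, the genes counted as higher in the knockout at a q under 0.10 were Styx (q = 0.0858) and Rasa1 (q = 0.0572). When centred they were Dusp11, Styx, Sos1 and Rasa1, at log2 values of 0.61, 1.02, 0.71 and 0.77. Their adjusted p values were 0.0404, 0.0361, 0.0382 and 0.0121 (Benjamini-Hochberg over all tested models). The cause of the shifts in the counts was not tested.

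Signs turned for some named genes. With the trend removed, and with the median of the 200 nearest genes subtracted, the log2 values were 0.55 and 0.49 for Dusp7, 0.34 and 0.34 for Mapk14, 0.51 and 0.50 for Mapk3, -0.17 and -0.11 for Mapk8, 0.44 and 0.43 for Map2k5, 0.18 and 0.15 for Map3k14, 0.20 and 0.21 for Map4k4, 0.38 and 0.29 for Rasal3, 0.21 and 0.18 for Sh2d2a, 0.83 and 0.93 for Jund, 0.082 and 0.10 for Ptpn7, -0.18 and -0.22 for Ppm1a, 0.27 and 0.29 for Egr1, and 0.18 and 0.16 for Cd5. Centred, and scaled to the sum of FPKM, they were 0.11 and 0.23 for Dusp19, 0.089 and 0.20 for Mapk14, 0.012 and 0.12 for Map2k5, 0.037 and 0.15 for Map2k6, and 0.16 and 0.27 for Ppp2ca, and Map4k4 was 0.060 when scaled to the sum. Pseudocounts of 0.1 and 1 turned no sign.

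No paired analysis was possible because the table pools the populations of each genotype. Leaving out each replicate in turn was not run for the same reason. The depth of the libraries is unknown, and the precision rests on the deposited statistic, whose test is unknown here. GC content is that of a reference transcript, and which isoform was expressed was not tested.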
